A study of Mus musculus with 2 samples.

Results

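Deubiquitinases are proteases that take ubiquitin, a small protein tag, off other proteins or off chains of itself, and so reverse the work of the ubiquitin ligases. The genes described here are the protein-coding mouse genes whose symbol begins with Usp, Otud or Josd followed by a digit. There were 66 of them among 21474 protein-coding genes in the tables: 56 Usp, 8 Otud and 2 Josd genes. USP enzymes form the largest family and cut most kinds of ubiquitin chain, OTUD enzymes carry an ovarian tumour type protease fold and tend to prefer particular chain types, and JOSD enzymes carry the Josephin fold of ataxin-3. Maturing red cells clear much of their protein content, in part through ubiquitin and the proteasome, before and after the nucleus is expelled. Usp6nl meets the naming rule but encodes a GTPase-activating protein of Rab GTPases and not a deubiquitinase. It is kept here because the rule goes by name. Usp39 is counted with them although its protein lacks the catalytic residues.

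The RNA came from erythroblasts, the nucleated precursors of red cells, taken as Ter119-positive primary cells from the liver of mouse embryos of both sexes, pooled, at day 14.5 of gestation. The labels give no strain, treatment or genetic change. Poly(A)-selected RNA was sequenced as paired ends in 2 libraries, which the labels number as biological replicates 1 and 2 and which are called library 1 and library 2 here. The labels list separate biosamples but a single donor entry for the pair. Part of their spread may therefore be technical. The 2 libraries form 1 group, so no conditions were compared.

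Depth was 51190555 expected counts for library 1 and 44256287 for library 2, and globin genes took 72.3% and 72.2% of them. For a gene with 0 counts the upper limit was set at 3 counts, which is a CPM (a count scaled to library size) of 0.0590 in library 1 and 0.0673 in library 2. Counting intervals, floors and binomial tests cover counting error only. All 9 erythroid markers examined reached 1 TPM in both libraries. TPM is a transcript's abundance corrected for its length and scaled to the same sum in each library. Tfrc was the lowest of them, at 6.90 and 6.13 TPM. Markers of other cells were also present at a low level. Their summed TPM in library 1 and library 2 was 8.23 and 10.2 for 5 hepatocyte genes, 6.87 and 10.1 for 5 macrophage genes, 6.23 and 7.26 for 5 neutrophil genes and 10.9 and 13.9 for 5 megakaryocyte genes. For 5 lymphocyte genes it was 0.15 and 0.2, and for 5 endothelial and stromal genes 0.14 and 0.18. In each of the hepatocyte, macrophage, neutrophil and megakaryocyte lists 2 of the 5 genes reached 1 TPM in both libraries, the highest being the megakaryocyte gene Gp9 at 8.32 and 10.31 TPM. In the lymphocyte and the endothelial and stromal lists 0 did. Ly6g and Cd3e were listed at 0 in both libraries. What part such cells have in the lower levels given here was not tested.

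Josd2 was by far the most abundant of the 66 genes in these erythroblasts. Its TPM was 950.1 in library 1 and 1193 in library 2, a mean of 1072 ± 172 (SD, n = 2), from 56526 and 55020 expected counts. By mean TPM it ranked 16 of 21474 protein-coding genes. The next gene in each library was Usp1, lower than Josd2 by 26.7 times in library 1, and Otud5, lower by 39.2 times in library 2. Josd2 alone made up 85.7% and 87.2% of the summed TPM of all 66 genes. Since TPM corrects for length and Josd2 transcripts are short, its share of the summed expected counts was smaller, 65.3% on average. In bulk RNA of this kind, fewer cells of a type and less RNA per cell cannot be told apart.

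**Figure D1:**
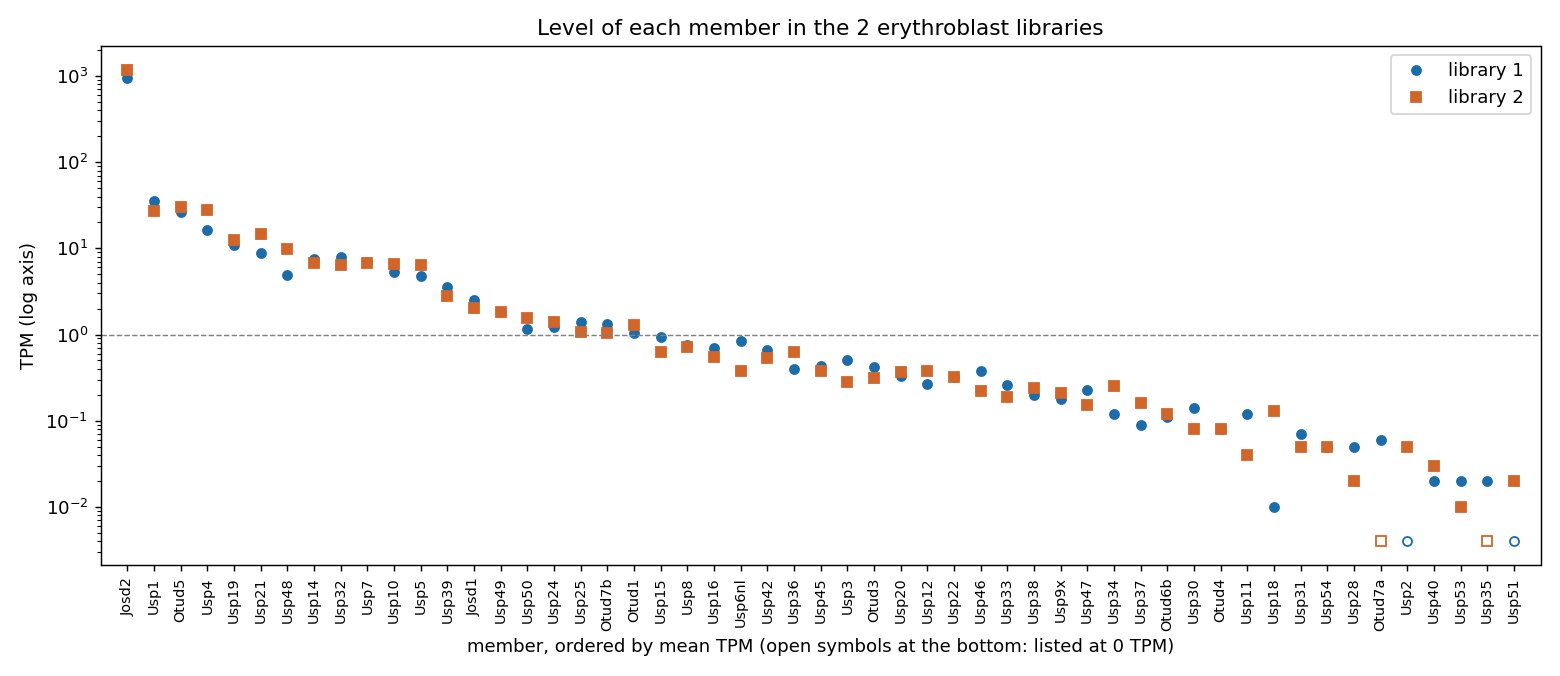
Level of each of the 53 genes with a mean above 0, in TPM on a log axis, in library 1 (circles) and library 2 (squares), ordered by mean; open symbols at the bottom are listed at 0 TPM, and the dashed line is 1 TPM. Josd2 lies at 950.1 and 1193 TPM, above every other member in both libraries, and the 20 members with both symbols on or over the line are the detected ones.

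Josd2 lies on chromosome 7 at chr7:44467980-44471662 (mm10, plus strand, positions of GENCODE M21). None of its 31-base words occurred in another gene's transcripts, and no other gene's exons overlapped its own. The exons of Aspdh, the neighbour upstream on the same strand, end 221 bases before it, and Aspdh held 12 and 14 counts. Its 17 annotated transcripts were led by coding ones: Josd2-204 (864 bases) carried 46.2% and 39.5% of the gene's TPM, Josd2-206 (588 bases) 21.2% and 27.3%, and Josd2-211 (620 bases) 23.0% and 20.7%. Coding transcripts together carried 94.0% and 92.0% of it. The authors' deposited intervals for Josd2, whose level is not stated, ran from 935 to 952 TPM in library 1 and from 1170 to 1191 in library 2, so the libraries did not overlap and the TPM of library 2 lay just above its own interval.

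The sequences before the start of Josd2 and of Usp4 are printed because both genes were among the members with the highest TPM and their starts differ in letter content. For Usp4, 94.0% and 93.6% of the TPM fell to a retained-intron transcript, and its coding transcripts were at 0.96 and 1.77 TPM. Whether the retained-intron transcript begins at the start used here was not tested. They are the last 200 bases before the RefSeq start (GRCm38.p6, the assembly of mm10, plus strand, 5′ to 3′), at chr7:44467780-44467979 for Josd2 and chr9:108347631-108347830 for Usp4. Capitals mark matches, on either strand, to AGATAA, the letters that GATA factors are known to bind, or CCNCNCCC, the letters that KLF1 and related factors are known to bind; matches may overlap.
Josd2: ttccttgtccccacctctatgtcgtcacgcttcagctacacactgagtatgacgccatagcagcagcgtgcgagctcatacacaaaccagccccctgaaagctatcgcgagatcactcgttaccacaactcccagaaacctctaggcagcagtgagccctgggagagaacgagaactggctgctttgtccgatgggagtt
Usp4: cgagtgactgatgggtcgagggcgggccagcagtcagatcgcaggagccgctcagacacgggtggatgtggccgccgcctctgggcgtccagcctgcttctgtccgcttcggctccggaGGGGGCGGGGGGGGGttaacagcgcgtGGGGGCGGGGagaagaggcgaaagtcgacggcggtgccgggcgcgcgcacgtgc
The Josd2 stretch holds neither set of letters on either strand, and the Usp4 stretch has all its capitals in G-rich runs that match CCNCNCCC on the other strand. In the 250 bases before the start, the Usp4 window held 6 such matches and the Josd2 window 0. Windows of that kind were matched by symbol for 51 of the 66 genes, and 15 were not used. AGATAA occurred in 9.99% of all 32851 RefSeq windows of the same length and in none of the 51 genes. CCNCNCCC occurred in 45.9% of all windows and in 39 of the 51 genes, of which 9 were among the 15 matched genes that were detected and 30 among the 36 that were not. TATAAA, the TATA box letters, occurred in 12.4% of all windows and in 5 of the 51. The members' windows were richer in G and C, with a median of 64.0% against 52.4% over all windows. A match is only a string of letters, and its absence says only that the letters are not in this window.

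Of the 66 genes, 20 reached 1 TPM in both libraries and are called detected here, 30.3%. Over all protein-coding genes the share was 20.0%. In 5 genes both libraries were at 10 TPM or more, and in 10 at 5 TPM or more. By mean TPM the lowest detected were Otud7b, at 1.31 and 1.05 TPM, and Otud1, at 1.03 and 1.30 TPM. The next below were Usp15, at 0.94 and 0.63 TPM, and Usp8, at 0.75 and 0.72 TPM. A further 12 genes had 0 counts in both libraries, 18.2% against 35.2% of all protein-coding genes, and the remaining 34 lay in between. The median of the mean TPM was 0.263 over the 66 genes and 0.02 over all protein-coding genes, and the upper quartile was 1.29 against 0.605. Most of the 66 genes were thus present at a low level, with a few well above it.

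The TPM of several members rested on short transcripts, so a second scale was computed in which the counts of each gene were divided by the length of its longest coding transcript and scaled to the same sum as TPM. On that scale Josd2 still led, at 1012 in library 1 and 1139 in library 2, and it again ranked 16 of the protein-coding genes in both libraries. Otud5 came next at 31.4 and 38.7, then Usp19 at 12.9 and 14.5, Usp14 at 11.5 and 9.39 and Usp7 at 10.4 and 8.99. Usp1, next after Josd2 by mean TPM, moved to place 12 at 3.97 and 2.84, 9.19 times lower than its TPM. The TPM was more than 2 times the second value in 6 detected genes, namely Usp1, Usp4, Usp48, Usp32, Usp49 and Usp50. On the second scale 19 genes reached 1 in both libraries, 18 of them the same genes as by TPM: Usp49 and Usp50 dropped out and Usp8 came in. The places of Usp1, Usp4, Usp48 and Usp32 among the members therefore depended on the length used. Otud5 moved by 1 place, from 3 to 2, and Josd2 was first on both scales.

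**Figure D2:**
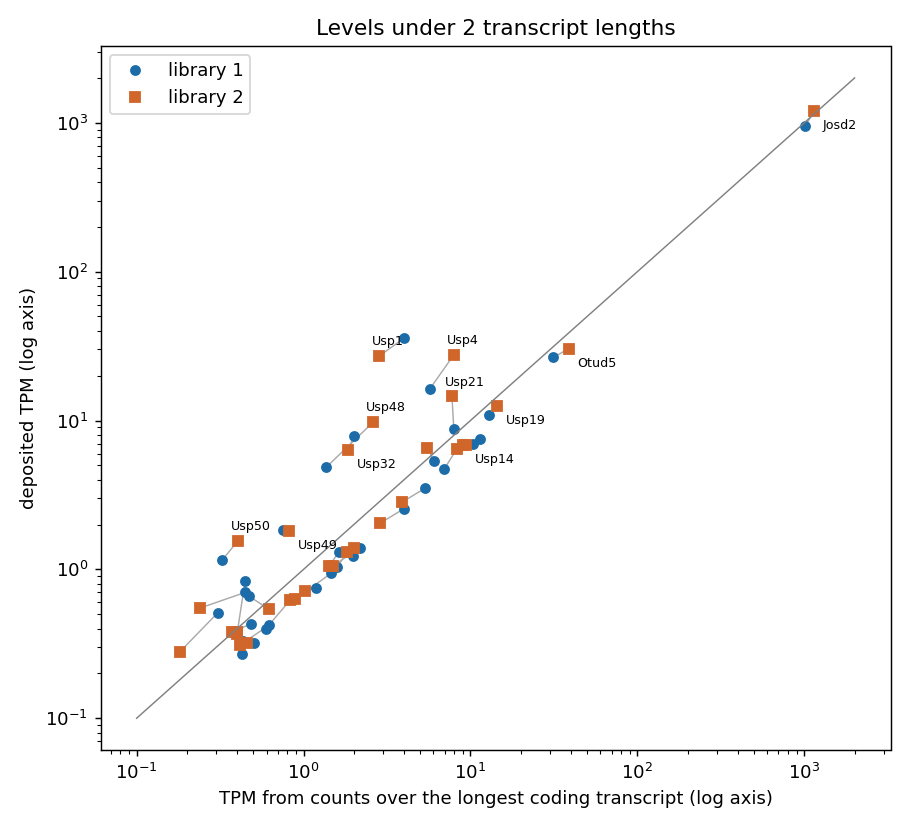
Deposited TPM (vertical, log axis) against TPM from counts over the longest coding transcript (horizontal, log axis) for the 32 members with a mean TPM above 0.3, with a thin line joining library 1 (circle) and library 2 (square) of a gene and a diagonal for equal values. Usp1, Usp4, Usp48, Usp32, Usp49 and Usp50 lie above the diagonal in both libraries, while Josd2 and Otud5 lie close to it.

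Josd1, the relative of Josd2, is a membrane-associated Josephin protease. It was at 2.55 TPM in library 1 and 2.04 in library 2, from 812 and 506 counts. Josd2 was higher than Josd1 by 373 times in library 1 and 585 times in library 2, and by 254 and 397 times on the longest-transcript scale.

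Otud5 encodes an X-linked enzyme that trims ubiquitin from signalling proteins such as TRAF3 and is needed in early development. It was the highest of the OTUD genes at 26.50 TPM in library 1 and 30.41 in library 2, from 8021 and 8575 counts. Its main coding transcript, Otud5-201, carried 51.1% and 79.8% of its TPM, and a retained-intron transcript, Otud5-208, carried 36.1% and 16.3%. Otud7b, which cuts chains linked through lysine 11 of ubiquitin, and Otud1 were near 1 TPM in both libraries. The other members ranged from 0.42 TPM for Otud3 in library 1 down to Otud6a, with 0 counts in both. Otud7a, the relative of Otud7b, had 3 counts in library 1 and 0 in library 2.

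Of the genes that recycle ubiquitin, Usp14, a proteasome-bound enzyme, was at 7.49 and 6.82 TPM. Usp5, which takes apart free ubiquitin chains, was at 4.73 and 6.43 TPM, while its relative Usp13 had 0 counts in both libraries. Exons of Usp14 overlap those of Thoc1 on the opposite strand over 26.0% of their bases. Thoc1 held 14 and 27 counts against 1625 and 1151 for Usp14, and whether counting used the strand is not given in the sources used here.

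In the group for DNA repair, replication and the cell cycle, 3 of 7 genes were detected. Usp1, which with its partner Wdr48 removes ubiquitin from Fancd2 and Pcna, was at 35.58 TPM in library 1 and 27.06 in library 2. Of this TPM, 97.8% and 97.7% fell to Usp1-204, a coding fragment of 317 bases, which held 596 and 365 of the gene's 854 and 528 counts. None of the 31-base words of Usp1-204 occurred in another gene, whereas 33.5% of those of the full-length Usp1-201 did. The gene it shares most with, Gm5841, held 0 and 2.01 counts. Usp7, which acts on Mdm2 and p53, was at 6.95 and 6.83 TPM, and Usp48, which acts on histone H2A, at 4.86 and 9.77 TPM. In TPM the libraries were close for Usp7 and 2 times apart for Usp48. In scaled counts Usp7 was at a CPM of 58.2 in library 1 and 49.8 in library 2. It was called higher in library 1 by the exact conditional binomial test (adjusted p = 2.0e-07) but not by edgeR's exact test. Usp45, Usp47, Usp37 and Usp28 lay between 0.43 and 0.02 TPM.

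Among the genes for enzymes that act on histones and chromatin, 2 of 12 were detected. Usp21, which acts on histone H2A, was at 8.77 and 14.53 TPM from 1087 and 917 expected counts. Scaled to library size these counts were nearly equal, at a CPM of 21.4 in library 1 and 20.6 in library 2. The rise in its TPM was thus not seen in its scaled counts. Its TPM was led by Usp21-212, a coding transcript of 484 bases, at 38.1% in library 1 and 64.4% in library 2. By counts, however, Usp21-210, a transcript of 2091 bases annotated for nonsense-mediated decay, led with 47.0% and 54.6%, against 10.3% and 27.1% for Usp21-212. Usp49, an H2B enzyme, was at 1.83 and 1.81 TPM, but 50.8% of its words occurred elsewhere. Its exons overlap those of Gm20517 on the same strand, which held 449 and 271 counts against 372 and 351 for Usp49, and its counts were not whole numbers, so its level is uncertain. Usp22, the H2B enzyme of the SAGA coactivator, stood at 0.32 TPM in both libraries, from 135 and 105 counts. Its relatives Usp27x and Usp51, which can take its place in the same module, had 2 and 0 counts and 1 and 3 counts. Of the partners of that module, Atxn7l3 was at 6.05 and 5.03 TPM, Eny2 at 1.44 and 1.35 and Atxn7 at 0.07 and 0.09. The other members with counts, Usp3, Usp12, Usp16, Usp36, Usp42 and Usp46, lay between 0.70 and 0.22 TPM, and Usp44 had 0 counts in both.

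In the group placed at the endosome, the endoplasmic reticulum and the mitochondrion, 3 of 7 genes were detected. Usp19, whose main forms are anchored in the endoplasmic reticulum, was the highest at 10.88 and 12.46 TPM from 3715 and 3606 counts, and its leading transcripts were long and coding. Usp32 was at 7.92 and 6.38 TPM and Usp10, a partner of G3bp1, at 5.34 and 6.58. The scaled counts of Usp10 went the other way, at a CPM of 26.6 in library 1 and 24.0 in library 2. For Usp32 most of the TPM fell to short transcripts of 664 and 457 bases, while 54.9% and 63.9% of its counts fell to the coding Usp32-202 of 7053 bases. Usp8, an endosomal enzyme that binds Stam, was at 0.75 and 0.72 TPM. Usp20 and its relative Usp33 were at 0.33 and 0.37 TPM and at 0.26 and 0.19 TPM, and Usp30, of the outer mitochondrial membrane, was at 0.14 and 0.08 TPM.

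Of the 12 genes listed for signalling and protein stability, 3 were detected. Usp4 stood at 16.28 TPM in library 1 and 27.70 in library 2. Its relatives were lower on both scales: Usp15 by 17.3 and 44.0 times in TPM and by 3.90 and 8.97 times on the longest-transcript scale, and Usp11, at 0.12 and 0.04 TPM, by more. Most of the TPM of Usp4 belongs to a retained-intron transcript described further on. Over coding transcripts alone, Usp4 was at 0.96 and 1.77 TPM against 0.94 and 0.63 for Usp15, a ratio of 1.02 in library 1 and 2.81 in library 2. Usp24 was at 1.23 and 1.39 TPM from a long transcript and Usp25 at 1.39 and 1.06 TPM. Usp28, the relative of Usp25 listed above with DNA repair, was lower than Usp25 by 27.8 and 53.0 times, at 0.05 and 0.02 TPM. Usp18, which removes the ubiquitin-like protein ISG15, had 1 count in library 1 and 16 in library 2, and Usp2 had 0 and 11. Both were called higher in library 2 by the exact conditional binomial test, with adjusted p of 3.2e-04 and 9.1e-04, and neither by edgeR's exact test, with adjusted p of 0.070 and 0.082. Usp9x, Usp31, Usp34, Usp35 and Usp38 were at 0.25 TPM or less in both libraries.

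Usp39, the splicing factor of the family, was at 3.52 and 2.82 TPM. Of the 9 genes listed as germ line or lineage restricted, 8 had 0 counts in both libraries: the 5 Usp17l genes, Usp26, Usp29 and the Y-linked Usp9y. The ninth, Usp50, was listed at 1.15 and 1.56 TPM from 26.5 and 28.7 counts that were not whole. All of them fell to 1 transcript of 377 bases that M21 does not list, and its 5 other transcripts were at 0. Exons of Usp50 overlap those of Gm10774, a processed pseudogene, on the same strand over 6.57% of their bases. Of the words of Usp50, 11.7% occur elsewhere, most often in Polr2l, which held 2558 and 1994 counts. Overlap and words were taken from M21, so neither was measured on the transcript that held the counts. Since the counts were not whole and fell to a transcript that M21 does not list, the level of Usp50 is uncertain. Among the remaining names, Usp6nl was at 0.84 and 0.38 TPM, Usp40, Usp53 and Usp54 were at 0.05 TPM or less, and Usp43 had 0 counts.

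The transcript that carried most of a member's TPM was examined in the 34 genes that held at least 50 counts in each library. It was annotated as coding in 30 of them, 88.2%, against 80.7% of 6308 protein-coding genes held to the same minimum. By expected counts it was coding in 29 of the 34, a lower share than the 88.2% of those genes. The comparison with all genes thus turned with the measure. The same transcript led in both libraries in 26 of the 34 genes, and the share over all genes is not given for this count. By TPM the exceptions to a coding leader were Usp4, Usp7, Usp45 and Usp48, and by counts Usp21 was one as well. In Usp4, the retained-intron transcript Usp4-208 of 760 bases carried 94.0% and 93.6% of the TPM and 73.8% and 81.3% of the counts, and none of its words occurred in another gene. In Usp7, Usp7-206, a transcript of 4488 bases annotated for nonsense-mediated decay, carried 97.7% and 95.1%, which left 2.2% and 2.3% for coding transcripts. Usp45-203, of the same class and 3977 bases long, carried 82.9% and 88.9% of Usp45. In Usp48 the processed transcript Usp48-206 of 540 bases carried 38.1% and 59.2% of the TPM, and by counts another processed transcript, Usp48-213 of 3392 bases, led with 36.9% and 57.1%. Counting coding transcripts alone, 17 of the 66 genes were detected, 3 fewer than by gene TPM. The matching share over all protein-coding genes is not given, so the drop is not read as particular to the members.

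**Figure D3:**
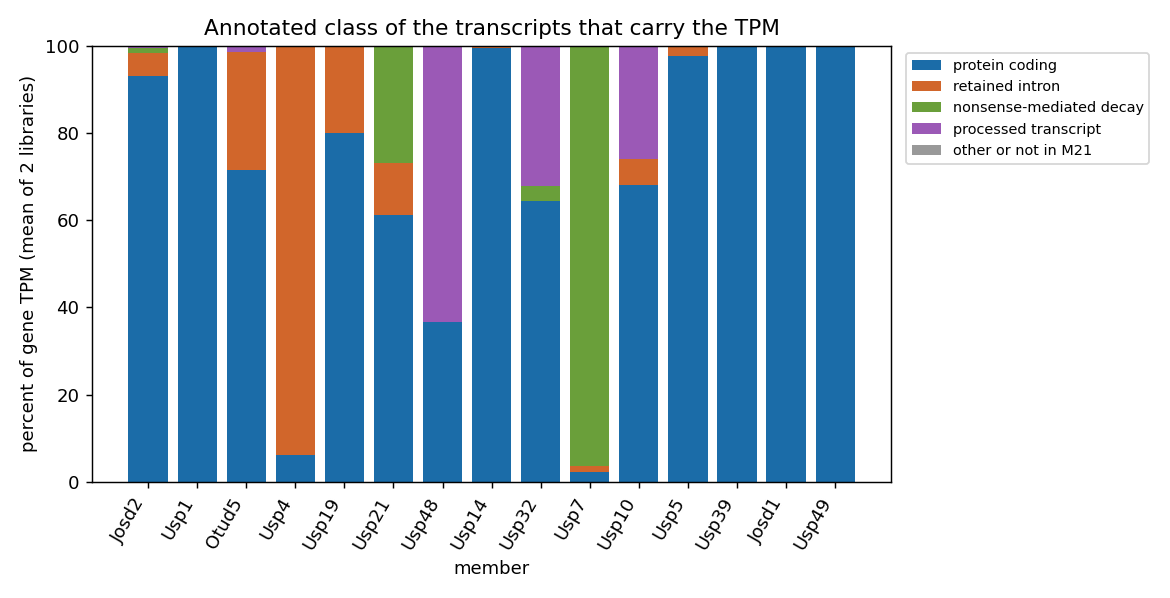
Percent of gene TPM, as the mean of the 2 libraries, that fell to transcripts of each annotated class, for the 15 members with the highest mean TPM. Most bars are mainly protein coding, while Usp4 is almost all retained intron, Usp7 almost all nonsense-mediated decay, and Usp48 mainly processed transcript.

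Some members split their TPM between near-equal coding transcripts in a way that differed between the libraries. Usp24-201, of 10575 bases, carried 99.8% of Usp24 in library 1 and 36.8% in library 2, with Usp24-204, of 10594 bases, taking 63.2% there. Usp8-202, of 4154 bases, carried 36.0% and 100% of Usp8, with Usp8-201, of 4145 bases, at 64.0% and 0%. These pairs differ little in length, and how reads were divided between them was not tested.

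An exact conditional binomial test, two-sided, was run on the rounded expected counts. It compares these 2 libraries and not conditions. Of the 50 members with at least 10 counts in all, 26 differed at an adjusted p under 0.05, with 17 higher in library 1 and 9 higher in library 2. The background was high: 44.9% of 10955 genes tested differed, 22.5% higher in library 1 and 22.4% higher in library 2. Against that, 52.0% of the members tested differed, 34.0% higher in library 1 and 18.0% higher in library 2. With a minimum of 50 counts in all, the shares called were nearly equal, 52.3% of members and 51.9% of all genes. The median log2 ratio of library 2 over library 1, on scaled CPM + 1, was -0.14 over the 40 members with a mean CPM of 1 or more and -0.01 over all 7031 such genes. When the spread between replicates was estimated from all genes, as a biological coefficient of variation of 0.240, edgeR's exact test called 0 of the 50 members, with 3 at an unadjusted p under 0.05, and 1.71% of all genes. That coefficient comes from the same 2 libraries. For 26 members the difference was thus larger than counting error, and for none did it pass once spread between replicates was allowed for.

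Among called members that held at least 100 counts in one of the libraries, these were furthest apart by the ratio of scaled CPM + 1, which draws the ratio of low genes towards 1. Usp48 held 472 counts in library 1 and 781 in library 2, 1.89 times higher in scaled CPM in library 2 (adjusted p = 3.2e-27 by the exact conditional binomial test). The rise in its counts lay in processed transcripts, which held 246 and 624 counts, while its coding transcripts held 226 in library 1 and 157 in library 2, at 2.48 and 2.19 TPM. Usp4, with 1254 and 1516 counts, was 1.38 times higher in library 2. Of these counts, not scaled to depth, 328 and 284 fell to coding transcripts, which were at 0.96 and 1.77 TPM. Usp36, a nucleolar enzyme, with 202 and 244 counts, was also 1.38 times higher in library 2. Otud5 was 1.22 times and Usp5 1.17 times higher in library 2. The reverse held for Usp46, with 102 and 45 counts, whose level in library 2 was 0.504 of that in library 1, and for Usp47, with 121 and 63 counts, at 0.594. Usp15, with 283 and 149 counts, stood at 0.601, Usp25, with 579 and 344, at 0.678 and Usp1 at 0.706. By the plain ratio Usp3, with 103 and 53 counts, was also far apart, at 0.587. Josd2 was 1.11 times higher in library 2 (adjusted p = 1.6e-67 by the exact conditional binomial test), a small ratio resolved by its depth. All of these lost the call in edgeR's exact test, with adjusted p from 0.591 for Usp48 to 1.00.

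**Figure D4:**
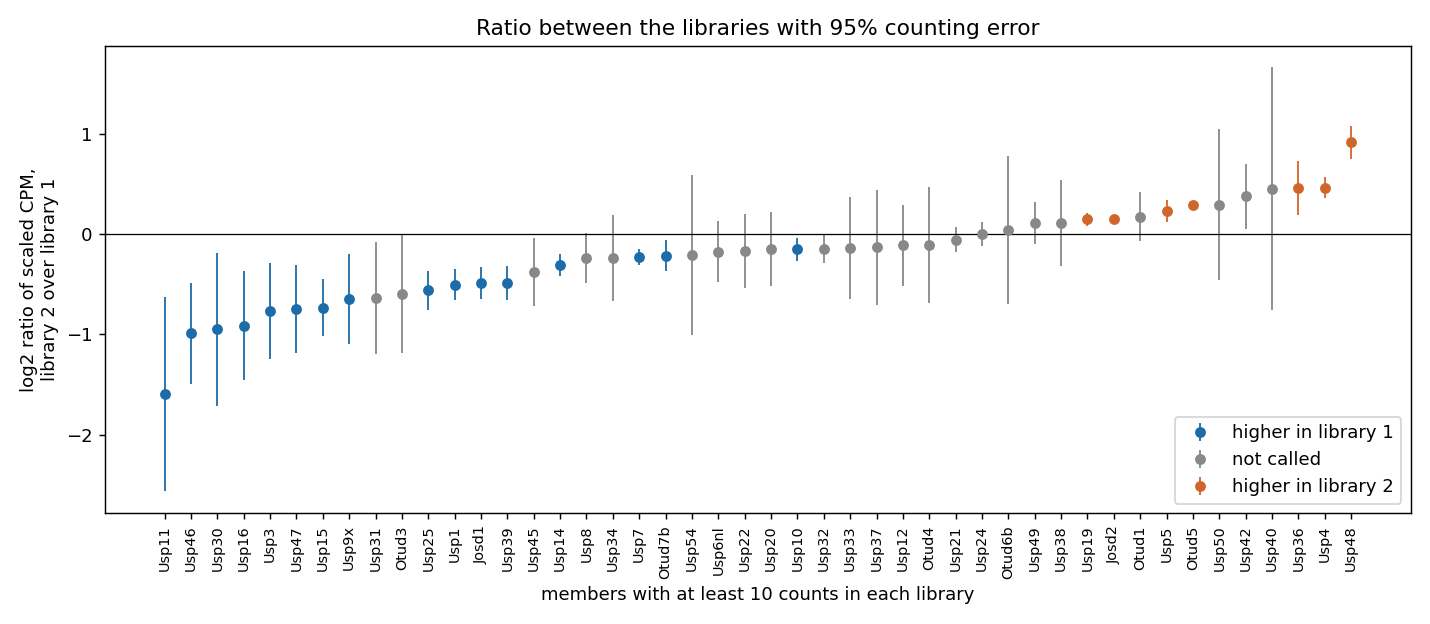
Log2 ratio of scaled CPM, library 2 over library 1, for the 46 members with at least 10 counts in each library, with bars of 95% counting error and colours for the binomial call. More of the called genes lie below 0 (higher in library 1) than above, and Usp48 lies highest among those called.

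The other genes of the pathway give the scale. Of 35 listed genes of the other deubiquitinase families, 14 were detected, with a summed TPM of 122 in library 1 and 129 in library 2. The 12 genes of the JAMM list gave 78.6 and 88.1 TPM of this and 6 of the 14, and that list includes relatives such as Prpf8, Eif3h, Cops6 and Psmd7, subunits of the splicing, translation, signalosome and proteasome complexes that are not active deubiquitinases. Without Josd2, the 66 genes summed to 158 and 176 TPM, and with it to 1108 and 1369. The highest of the other lists were Eif3f, a translation factor subunit of the JAMM family, at 37.73 and 43.75 TPM, Eif3h at 19.85 and 21.48, Cops6 at 12.07 and 9.80, and Otub1 at 9.61 and 11.50. Mindy1 was at 7.16 and 7.22 TPM and Bap1 at 6.01 and 6.51. In the binomial comparison 7 of the 35 were higher in library 1, 1 in library 2, 23 were not called and 4 were not tested. The 8 called are 25.8% of the 31 tested, against 44.9% of all genes tested. None of the 35 came near Josd2.

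Ubb, which encodes ubiquitin itself, was at 220.86 and 349.15 TPM and was higher in library 2 by the binomial test. Rps27a, which encodes ubiquitin fused to a ribosomal protein, was at 14.68 and 13.12 TPM and was higher in library 1. The activating enzyme Uba1 was at 8.95 and 7.26 TPM, and Uba6 had 0 counts. Of 14 partners of these enzymes, 8 were detected. Ube2o, a conjugating enzyme known to be abundant in maturing red cells, was the highest at 81.89 and 80.45 TPM, and Wdr48, the partner of Usp1, Usp12 and Usp46, was at 1.29 and 1.60. Josd2 thus stood above Ube2o and Ubb in both libraries.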

How the data were processed

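Poly(A) RNA was measured in 2 libraries of 1 group. Per the listing deposited with the tables, the genome was mm10 and the annotation GENCODE M4. No aligner, quantifier, version or strand setting is given in the sources used here. RSEM writes columns of the names found per the file headers. The deposited expected counts divide reads that match several genes and need not be whole. The deposited TPM and FPKM values are corrected for length by the authors' quantifier, and the deposited percent values give each transcript's part of its gene's TPM.

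Gene types, symbols, positions and transcript classes came from GENCODE M21, by identifier without version, and promoter sequences from RefSeq (GRCm38.p6). Expected counts were rounded for the tests. Scaling factors of the libraries, 0.993 and 1.01, came from the TMM method of edgeR 4.0.16 (R 4.3.3). Genes with 10 or more counts over both libraries entered a two-sided exact conditional binomial test with Benjamini-Hochberg adjustment over 10955 genes, threshold 0.05. No residual degrees of freedom remain for edgeR's quasi-likelihood test, so edgeR's exact test with the common dispersion of an intercept-only fit (9043 genes) served as an alternative. Words of 31 bases, on either strand, were compared between genes over M21 transcripts, and a count was called whole within 0.01.

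The members, the role and pathway lists and the tests were chosen with earlier results of these data known. The genes given with values were the 15 with the highest mean TPM, the 5 furthest apart in each direction among those called with 100 or more counts in a library, the highest and lowest of each role, those led by a transcript that is not coding, and the 3 highest and the lowest of each pathway list. Not every gene this rule takes is reported here. A clause of the rule on protein identity was not applied, and the pairs of relatives and any other gene named were chosen after their values were seen. Alternatives were DESeq2 1.42.0 size factors, total counts, other minima and pseudocounts, FPKM, posterior mean TPM, coding transcripts alone, the list without Usp6nl and each library alone. The scale by longest coding transcript was added after the data were seen. The binomial test was run first on simulated counts with counting error only, so that run does not cover spread between replicates. Python 3.11.15 with numpy 2.4.6, pandas 2.3.3, scipy 1.17.1 and matplotlib 3.10.9 did the rest.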

Additional observations from a re-analysis of the deposited data

How the results depend on the processing

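The number of detected members, 20, lay between 14 (at 2 TPM) and 24 (at 0.5 TPM) under the alternatives run, and each library alone gave 20. The matching shares over all protein-coding genes are not given for these alternatives. The median member level, 0.33 as log2(TPM + 1), became -1.49 with a pseudocount of 0.1, 0.56 with FPKM, 0.44 with posterior mean TPM, 2.89 over members at 1 TPM or more, 0.25 with coding transcripts alone, 0.29 without Usp6nl and 0.35 by the longest coding transcript, a scale added after the data were seen; single libraries gave 0.32 to 0.34. The Josd2 share of 86.5% was 65.3% of counts, 89.8% with coding transcripts alone and 89.2% by the longest coding transcript, and 85.7% to 87.2% in single libraries. The 26 members that differed between libraries numbered 23 to 26 under other scalings and minima. With a minimum of 50 counts, 52.3% of members tested were called against 51.9% of all genes tested, so the members hardly exceeded the background. With a minimum of 1 count the shares were 46.3% and 29.6%. In edgeR's exact test with common dispersion 0 members were called, against 1.71% of all genes, and all 10 named ratios lost the call. That dispersion comes from the same 2 libraries, so the difference tested is itself part of the spread allowed for. Scaled by total counts alone, 16 were higher in library 1 and 10 in library 2, against 2340 and 2582 of all 10955 genes tested. The 30 members led by a coding transcript were 18 of 21 at 200 or more counts, where fewer genes were examined. The median log2 ratio of the members kept its sign under the 5 alternatives run, from -0.16 to -0.02. No result reversed. No paired analysis was possible because there is 1 group. Depth limits the 16 members with under 10 counts in all, whose ratio was not tested, and 2 libraries give little on the spread between replicates.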

Other observations

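Of the 66 genes, 7 lie on the X chromosome and 1 of these, Otud5, was detected. By GC content of the gene's transcripts, 2 of 17 members under 45% were detected, 8 of 23 from 45% to 50%, 7 of 16 from 50% to 55% and 3 of 10 at 55% or more. Over all protein-coding genes the detected share in the same ranges was 7.29%, 16.6%, 25.6% and 32.0%. Across genes, which are not independent replicates and share their libraries, Spearman's rho of GC content with mean TPM was 0.095 over the 66 members and 0.299 over all 21474 protein-coding genes.

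The deposited TPM lay outside the gene's own deposited interval in 7 of the 51 members above 0 TPM in library 1 and in 7 of 51 in library 2. Among the 20 detected members, the intervals of the 2 libraries overlapped in 9. The shares over all genes are not given for these counts, so they are not read as particular to the members.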
